A study of Mus musculus with 3 samples.

Results

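The genes described here are 10 feedback inhibitors of growth factor and ERK signalling, of 30415 gene symbols counted in mouse hearts. They are the Sprouty genes Spry1, Spry2 and Spry4, the Sprouty-related genes Spred1 and Spred2, the receptor inhibitors Errfi1 and Lrig1, and the dual-specificity phosphatases Dusp1, Dusp4 and Dusp6. They were taken by symbol as a set already known to hold genes that differed between these libraries, so their levels and ratios are given as a description and without a test. Each of the 10 symbols was found in every library.

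The hearts came from NOD/SCID mice, an immunodeficient strain without functional T and B lymphocytes that keeps myeloid cells. Mice received pembrolizumab, atezolizumab or an isotype control antibody on days 0 and 7, and hearts were taken on day 14, digested with enzymes and run through droplet single-cell RNA sequencing of transcript 3′ ends. Pembrolizumab is an antibody raised against human PD-1, the checkpoint receptor, and atezolizumab one against its ligand PD-L1. Each group is 1 library made from 3 pooled hearts, so differences between hearts cannot be told apart from differences between antibodies, and no test between groups was possible. The 3 libraries are titled PD1/PEM, PDL1/ATZ and Isotype Control, but the treatment tags give atezolizumab for the library titled PD1/PEM and pembrolizumab for the library titled PDL1/ATZ. The libraries are therefore named by their titles throughout, and which antibody each of these 2 received is not settled here.

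Growth factors bind receptor tyrosine kinases at the cell surface and, through Ras and the kinases RAF, MEK and ERK, switch on a short programme of gene expression. Part of that programme encodes the pathway's own brakes. Sprouty and SPRED proteins act at the level of Ras and RAF, Errfi1 and Lrig1 act on receptors of the epidermal growth factor family, and dual-specificity phosphatases remove the activating phosphates from ERK and related kinases. In the heart the same pathway takes part in growth of cardiomyocytes, in activation of fibroblasts and in the making of vessels by endothelial cells.

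Transcripts were counted by unique molecular identifiers (UMIs), short tags that mark a captured RNA molecule before amplification. PD1/PEM held 14766346 UMIs in 6388 cells, PDL1/ATZ 15144668 in 11599 cells and isotype 16677883 in 9510 cells. Median depth was 2013.5 UMIs per cell in PD1/PEM, 1010 in PDL1/ATZ and 1532.5 in isotype. Mitochondrially encoded genes took a median of 26.9% of a cell's UMIs in PD1/PEM, 8.04% in PDL1/ATZ and 27.1% in isotype, so the PDL1/ATZ library stood apart from both others. Of the cell barcodes, 23 occurred in both PD1/PEM and isotype, and 0 of PDL1/ATZ occurred elsewhere. Heart markers were present in each library: every gene of the 16-gene cardiomyocyte, 16-gene endothelial and 16-gene fibroblast lists was read in all of them. These markers were also spread over nearly all cells, and 6228 of 6388 PD1/PEM cells, 11279 of 11599 PDL1/ATZ cells and 8758 of 9510 isotype cells held UMIs of at least 2 endothelial genes. RNA of the cell in a droplet and free RNA captured with it therefore cannot be told apart for a single gene. The 5 lymphocyte markers had 168 UMIs in PD1/PEM, 185 in PDL1/ATZ and 128 in isotype in all. Levels below are counts per 1000000 UMIs (CPM) over the summed cells of a library. Intervals are exact, at 95%, and cover counting error alone. In such sums, fewer cells of a type and less of its RNA per cell cannot be told apart.

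Over all deposited cells, 5 of the 10 genes exceeded isotype by at least 1.5-fold in PD1/PEM, where 5.51% of all 14748 genes with at least 50 UMIs were, and 0 of the 10 were at least 1.5-fold lower, where 4.57% of all genes were. The 5 were Spry4, Errfi1, Dusp1, Spry2 and Spred2. Since the set was chosen with these ratios known, nothing is read from the count itself, or from the direction and median of the ratios. All 10 ratios were above 1, and the genes' median log2 ratio was 0.57, beside 0.01 over all genes tested. Spry4 was exceeded by 12 genes of the 14748, Errfi1 by 15 and Dusp1 by 86, whereas 5524 genes had a higher ratio than Lrig1 and 6910 a higher ratio than Spry1. In PDL1/ATZ against isotype the set looked different. There 1 of the 10, Spred2, was at least 1.5-fold higher, where 49.6% of all 15496 genes were, and 0 of the 10 were at least 1.5-fold lower, where 5.32% of all genes were.

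**Figure D1:**
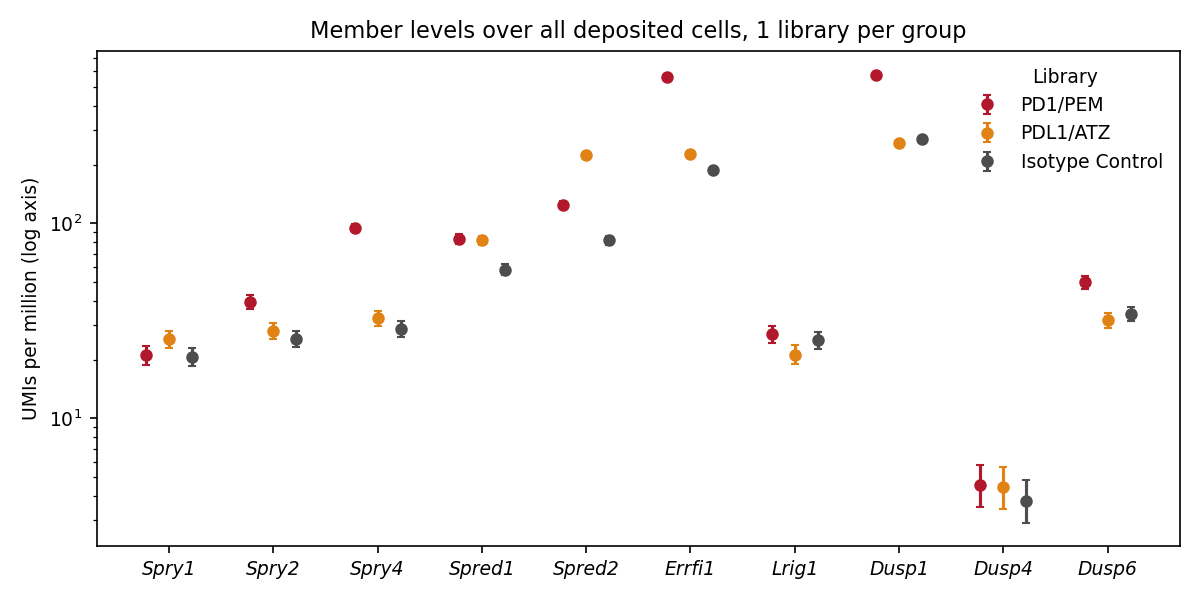
CPM (log axis) of each gene over all deposited cells, in PD1/PEM (red), PDL1/ATZ (orange) and isotype (grey), 1 library per group; bars are exact 95% Poisson intervals for counting error and are hidden by the points where narrow. Spry4, Errfi1 and Dusp1 stand highest in PD1/PEM, Spred2 stands highest in PDL1/ATZ, and Dusp4 lies near 4 CPM in every library.

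Among the Sprouty genes, Spry4 differed most. Spry4 (chr18:38586247-38601415 in GRCm38, minus strand) had 1397 UMIs or 94.6 CPM in PD1/PEM and 493 UMIs or 32.6 CPM in PDL1/ATZ, against 480 UMIs or 28.8 CPM in isotype. PD1/PEM stood well above both other libraries, which lay close together. Its ratio to isotype was 3.29 (2.96 to 3.65) in PD1/PEM and 1.13 (0.995 to 1.29) in PDL1/ATZ. The 1397 UMIs in PD1/PEM came from 1195 cells with at most 5 in a cell, and the 480 in isotype from 467 cells with at most 2 in a cell, so the difference was not carried by a few cells.

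Spry2, the second inhibitor of this family (chr14:105891947-105896819, minus strand), had 581 UMIs or 39.3 CPM in PD1/PEM and 427 UMIs or 28.2 CPM in PDL1/ATZ, against 425 UMIs or 25.5 CPM in isotype. It too was highest in PD1/PEM, at a ratio of 1.54 (1.36 to 1.75), an interval that spans the 1.5-fold line. Spry1 (chr3:37639947-37644598, plus strand) went with neither of them. Its 312 UMIs or 21.1 CPM in PD1/PEM and 386 UMIs or 25.5 CPM in PDL1/ATZ stood beside 345 UMIs or 20.7 CPM in isotype. PD1/PEM and isotype did not differ beyond counting error, with a ratio of 1.02 (0.874 to 1.19). The 3 Sprouty genes, whose proteins share the same C-terminal domain and overlapping targets, thus gave ratios of 3.29, 1.54 and 1.02 in the same libraries, and the interval of Spry4 overlapped neither of the other two.

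The SPRED proteins bind Ras and RAF and hold back activation of RAF. Spred1 (chr2:117121374-117182279, plus strand) had 1224 UMIs or 82.9 CPM in PD1/PEM and 1240 UMIs or 81.9 CPM in PDL1/ATZ, against 965 UMIs or 57.9 CPM in isotype. Both antibody libraries lay above isotype by nearly the same ratio, 1.43 (1.32 to 1.56) in PD1/PEM and 1.42 (1.30 to 1.54) in PDL1/ATZ. The median gene differed between them, at a log2 ratio to isotype of 0.01 in PD1/PEM and 0.58 in PDL1/ATZ. Relative to it, Spred1 lay at log2 0.51 in PD1/PEM and -0.08 in PDL1/ATZ. Spred2 (chr11:19924375-20024026, plus strand) had 1831 UMIs or 124 CPM in PD1/PEM and 3393 UMIs or 224 CPM in PDL1/ATZ, against 1365 UMIs or 81.8 CPM in isotype. PDL1/ATZ held the most of it: the ratio to isotype was 1.52 (1.41 to 1.63) in PD1/PEM and 2.74 (2.57 to 2.92) in PDL1/ATZ.

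At the receptors, the 2 inhibitors differed from each other. Errfi1, also called MIG6, binds the kinase domain of epidermal growth factor receptors and blocks it (chr4:150853919-150868892, plus strand). It had 8306 UMIs or 562 CPM in PD1/PEM and 3411 UMIs or 225 CPM in PDL1/ATZ, against 3140 UMIs or 188 CPM in isotype. The ratio to isotype was 2.99 (2.87 to 3.11) in PD1/PEM and 1.20 (1.14 to 1.26) in PDL1/ATZ. UMIs of Errfi1 were read in 4253 PD1/PEM cells, with at most 21 in a cell, and in 2520 isotype cells, with at most 12. Lrig1, a membrane protein that promotes breakdown of the same receptors (chr6:94604529-94700158, minus strand), had 399 UMIs or 27.0 CPM in PD1/PEM and 321 UMIs or 21.2 CPM in PDL1/ATZ, against 419 UMIs or 25.1 CPM in isotype. For Lrig1 PD1/PEM and isotype did not differ beyond counting error, with a ratio of 1.08 (0.935 to 1.24), and PDL1/ATZ was the lowest at a ratio of 0.844 (0.727 to 0.978). Lrig1 overlaps Slc25a26 on the other strand, whose own ratio of PD1/PEM to isotype was 1.13 (0.970 to 1.32).

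Of the phosphatases, Dusp1 is found in the nucleus, acts on p38, JNK and ERK, and is itself widely known as an early response gene. Dusp1 (chr17:26505590-26562128, minus strand) had 8494 UMIs or 575 CPM in PD1/PEM and 3910 UMIs or 258 CPM in PDL1/ATZ, against 4501 UMIs or 270 CPM in isotype. PD1/PEM lay above both others, with a ratio to isotype of 2.13 (2.06 to 2.21), while PDL1/ATZ lay at 0.957 (0.916 to 0.999). Dusp1 overlaps Ergic1 on the other strand, which had 817 UMIs in PD1/PEM against 1096 in isotype and a ratio of 0.842 (0.768 to 0.923). It also overlaps Gm8225 on the other strand, and AC122252.4 and AC122252.1 on its own. Spry1, Spry4 and Errfi1 overlap genes on the other strand as well. The part of these overlaps in the ratios was not tested. Whether counting used strand is not given in the sources used here.

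Dusp6, a cytoplasmic phosphatase that acts mainly on ERK (chr10:99263231-99267489, plus strand), had 735 UMIs or 49.8 CPM in PD1/PEM and 481 UMIs or 31.8 CPM in PDL1/ATZ, against 571 UMIs or 34.2 CPM in isotype. Its ratio of PD1/PEM to isotype was 1.45 (1.30 to 1.62), short of the 1.5-fold line with an interval that spans it. Dusp4, a nuclear phosphatase close to Dusp1 (chr8:34807297-34819894, plus strand), was the least counted member. It had 67 UMIs or 4.54 CPM in PD1/PEM and 67 UMIs or 4.42 CPM in PDL1/ATZ, against 63 UMIs or 3.78 CPM in isotype. A difference was not detectable at this depth, with a ratio of PD1/PEM to isotype of 1.20 (0.839 to 1.72).

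**Figure D2:**
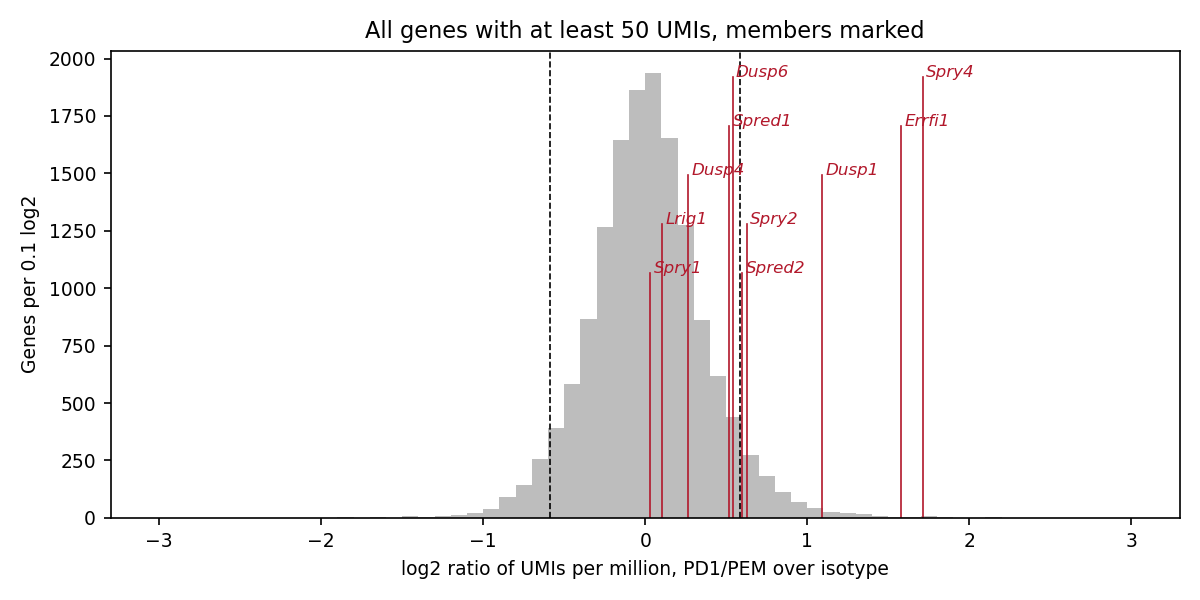
Number of genes per 0.1 of log2 ratio of PD1/PEM to isotype over all cells, for the 14748 genes with at least 50 UMIs; red lines mark the 10 genes, their heights are set for legibility, and dashed lines mark 1.5-fold in either direction. Spry4, Errfi1 and Dusp1 lie in the thin right tail, Spred1, Dusp6, Spred2 and Spry2 lie around the 1.5-fold line, and Spry1, Lrig1 and Dusp4 lie within the main body of genes.

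No upstream sequence was used for Spry4, which had the largest ratio of PD1/PEM to isotype. The upstream sequences of Errfi1 and Dusp1, which were both over 2-fold higher in PD1/PEM, are shown beside that of Spry1, which was not. They are RefSeq sequences in GRCm38.p6, each 150 bases long, 5′ to 3′ on the gene's strand and outside the gene's own GENCODE M21 exons. The Errfi1 stretch (chr4:150854920-150855069, plus strand) ends at the second of its 2 RefSeq starts, and the Spry1 stretch (chr3:37639797-37639946, plus strand) ends at its start. The Dusp1 stretch (chr17:26508520-26508669, minus strand) ends 48 bases before its RefSeq start, because GENCODE has an exon of Dusp1 from there on. The Errfi1 and Dusp1 stretches lie inside the GENCODE span of their genes given above, and are upstream only of a RefSeq start within it. Capitals mark the cyclic AMP response element TGACGTCA, its core TGACG on either strand, and the TATA box TATAAA.
Errfi1: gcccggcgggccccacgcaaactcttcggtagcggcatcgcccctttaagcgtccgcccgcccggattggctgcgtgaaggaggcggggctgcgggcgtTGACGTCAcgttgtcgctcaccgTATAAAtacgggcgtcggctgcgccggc
Dusp1: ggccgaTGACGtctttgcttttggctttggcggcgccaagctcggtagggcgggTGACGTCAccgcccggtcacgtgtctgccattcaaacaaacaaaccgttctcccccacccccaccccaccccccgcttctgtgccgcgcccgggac
Spry1: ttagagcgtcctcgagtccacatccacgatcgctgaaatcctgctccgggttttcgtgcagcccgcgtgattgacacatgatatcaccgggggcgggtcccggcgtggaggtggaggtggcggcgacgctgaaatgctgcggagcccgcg

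A set of 8 motifs was searched on both strands in the 250 bases before each RefSeq start. No such window was used for Spry4, the gene with the largest ratio, or for Dusp4, so 8 of the 10 genes were searched. The full element TGACGTCA reads the same on both strands and holds the core on each. It was found in 2 of these 8 genes, where 1.55% of all 32851 windows held it. They were Errfi1 (51 to 44 bases before its second start) and Dusp1 (143 to 136 bases before its start). The window before the first start of Errfi1 held none of the motifs. Counts are by gene and shares by window, and Errfi1 had 2 windows. Spry2 and Spred2, also at least 1.5-fold higher in PD1/PEM, did not hold the full element. The core TGACG was found in 3 of the 8, Errfi1, Dusp1 and Spred2, where 17.8% of all windows held it. The Spred2 core, 51 to 47 bases before its RefSeq start, lies within a GENCODE exon. TATAAA was found in Errfi1 alone among the 8, 28 to 23 bases before its second start, and in 12.4% of all windows. No letters of the AP-1 motif TGANTCA, the ETS motif CCGGAAG, the EGR motif GCGNGGGCG, the glucocorticoid response element or the CArG box were in the windows of these genes. The shares of all windows with them were 6.75%, 6.91%, 4.70%, 0.00913% and 1.47% in that order. These matches describe letters, not binding, and the genes were chosen after their ratios were known.

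In PDL1/ATZ the whole distribution of genes was shifted against isotype, with a median log2 ratio of 0.58 over all genes tested, beside 0.20 for the 10 genes. Of all symbols, 4835 had UMIs in the PDL1/ATZ library or in the other libraries but not in both, and were left out of this comparison. None of the 10 genes was among them. Between PDL1/ATZ and isotype, 161 symbols had at least 500 UMIs in either library and 0 in the other. Between PD1/PEM and isotype there were 0 such symbols. Whether PDL1/ATZ was counted in another way was not tested, and all its ratios carry that limit. Relative to the shift of all genes Spred2 stayed higher, by 0.88 on the log2 scale. Spry1, Spry2, Spry4, Spred1, Errfi1 and Dusp4, whose CPM ratios were above 1, turned to log2 values between -0.43 and -0.08 relative to the shift. Dusp1, Dusp6 and Lrig1 were then at least 1.5-fold lower, by 1.56-fold, 1.61-fold and 1.77-fold, where 18% of all genes were. The direction of those 6 genes in PDL1/ATZ thus depends on the scaling, while that of Spred2 does not. Relative to the median gene in PD1/PEM, Spry4, Errfi1 and Dusp1 remained at 3.27, 2.97 and 2.12 times isotype. Both comparisons use the same isotype library.

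Cells with markers of 3 heart cell types were then summed separately. The marker gates, which ask for at least 3 cardiomyocyte, 2 endothelial or 2 fibroblast genes and fewer than 2 genes of each of the other non-muscle lists, held few cells because markers were so widely spread. The cardiomyocyte gate held 20 cells in PD1/PEM, 14 in PDL1/ATZ and 164 in isotype, and the fibroblast gate 110 in PD1/PEM, 184 in PDL1/ATZ and 451 in isotype. The endothelial gate held 388 cells in PD1/PEM, 2388 in PDL1/ATZ and 1225 in isotype. It was little richer in its own list than the library: 0.441% of UMIs against 0.419% in PD1/PEM and 0.404% against 0.355% in isotype. Cardiomyocyte genes took 0.415% and 0.531% there. The fibroblast list took 0.407% of UMIs in the fibroblast gate of PD1/PEM and 0.373% in that of isotype. Cardiomyocyte genes took 0.435% and 0.530% in those. Neither gate therefore isolates a cell type. In the endothelial gate 8 of the 10 genes had at least 50 UMIs over PD1/PEM and isotype, and 5 were at least 1.5-fold higher, where 8.58% of all genes tested there were. These were Errfi1 (3.34, 2.79 to 3.99), Spry4 (2.48, 1.66 to 3.72), Dusp1 (2.03, 1.74 to 2.38), Spry2 (1.75, 0.98 to 3.07) and Spred2 (1.74, 1.27 to 2.37). In the fibroblast gate 3 genes had enough UMIs and all 3 were higher, where 11.1% of all genes were. They were Errfi1 at 2.66 (1.94 to 3.63), Dusp1 at 2.07 (1.53 to 2.79) and Spred2 at 1.55 (0.793 to 2.87). Of the other genes there, Spry1 had 0 UMIs in PD1/PEM against 12 in isotype, and Dusp4 had none in either. On few UMIs, Spry2, Spred1 and Lrig1 had ratios of 0.474, 0.694 and 0.366, and Spry4 and Dusp6 of 3.74 and 1.83. Counts in the gates leave out genes short of 50 UMIs, and a gene could reach 50 through the library where it was high. In the cardiomyocyte gate Dusp1 alone had enough, with 16 UMIs in PD1/PEM against 42 in isotype and a ratio of 2.75 (1.44 to 5.0), where 17.7% of all genes were higher.

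A second set of cells was defined after the data had been seen. It held cells with UMIs of at least 3 genes of a marker list. In them that list took at least 2 times its share in that library and the other lists less. These rules gave 623 cardiomyocyte-rich cells in PD1/PEM, 885 in PDL1/ATZ and 645 in isotype. Endothelial-rich cells numbered 163 in PD1/PEM, 262 in PDL1/ATZ and 404 in isotype, and fibroblast-rich cells 326 in PD1/PEM, 857 in PDL1/ATZ and 585 in isotype. Median depth in cardiomyocyte-rich cells was 3731 UMIs in PD1/PEM and 1246 in PDL1/ATZ, against 2583 in isotype. In endothelial-rich cells it was 1483 and 1477 against 1262.5, and in fibroblast-rich cells 1753.5 and 939 against 1362. The part of depth in the ratios of these sets was not tested. These sets are ranges of a score, not types. Another 352 PD1/PEM, 874 PDL1/ATZ and 681 isotype cells lay between 1.5 and 2 times the cardiomyocyte share, for instance. Because the cut follows each library's own share, the sets differ in make-up. The cardiomyocyte list took 1.26% of UMIs in the cardiomyocyte-rich set of PD1/PEM and 0.853% in that of PDL1/ATZ, against 1.39% in that of isotype. The endothelial list took 0.933% in the endothelial-rich set of PD1/PEM and 1.64% in that of PDL1/ATZ, against 0.821% in that of isotype. The fibroblast list took 0.847% in the fibroblast-rich set of PD1/PEM and 0.808% in that of PDL1/ATZ, against 0.794% in that of isotype. Markers of the other types were also present. Cardiomyocyte genes took 0.198% of UMIs in the endothelial-rich set of PD1/PEM and 0.0941% in that of PDL1/ATZ, against 0.355% in that of isotype, and 11 of 13 were at least 1.5-fold lower in PD1/PEM than in isotype. In the fibroblast-rich sets they took 0.190% in PD1/PEM and 0.118% in PDL1/ATZ, against 0.336% in isotype, with 10 of 14 at least 1.5-fold lower in PD1/PEM. Endothelial genes took 0.257% in the cardiomyocyte-rich set of PD1/PEM and 0.551% in that of PDL1/ATZ, against 0.224% in that of isotype. The share of all genes at least 1.5-fold lower was not counted in these sets. The part of these markers in the values that follow was not tested.

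Errfi1 and Dusp1 were higher in PD1/PEM in all 3 sets. Errfi1 reached 871 CPM in fibroblast-rich, 535 in endothelial-rich and 346 in cardiomyocyte-rich cells of PD1/PEM, and 263, 131 and 232 CPM in those of PDL1/ATZ, against 246, 162 and 114 CPM in those of isotype. Ratios of PD1/PEM to isotype came to 3.54 (3.04 to 4.15), 3.30 (2.55 to 4.28) and 3.03 (2.59 to 3.56), and in each library but PDL1/ATZ the order of the sets was the same. Dusp1 had 706 CPM in fibroblast-rich, 665 in endothelial-rich and 423 in cardiomyocyte-rich cells of PD1/PEM, and 244, 247 and 230 CPM in those of PDL1/ATZ, against 312, 268 and 202 CPM in those of isotype. Its ratios of PD1/PEM to isotype were 2.26 (1.95 to 2.63), 2.48 (2.01 to 3.06) and 2.09 (1.85 to 2.37), and their intervals overlap.

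Spry4 had 126 CPM in endothelial-rich, 96.6 in fibroblast-rich and 59.3 in cardiomyocyte-rich cells of PD1/PEM, and 22.2, 26.6 and 29.3 CPM in those of PDL1/ATZ, against 39.7, 31.4 and 14.5 CPM in those of isotype. PD1/PEM was highest in each set, with ratios to isotype of 3.18 (1.87 to 5.53), 3.08 (1.96 to 4.95) and 4.08 (2.65 to 6.52) that did not differ beyond counting error. Spred2 was led by PDL1/ATZ in every set. It had 159 CPM in endothelial-rich, 111 in fibroblast-rich and 90.4 in cardiomyocyte-rich cells of PD1/PEM, and 340, 200 and 197 CPM in those of PDL1/ATZ, against 103, 90.9 and 69.2 CPM in those of isotype. Lrig1 had enough UMIs in the cardiomyocyte-rich set alone, at 47.2 CPM in PD1/PEM and 31.4 CPM in PDL1/ATZ, against 39.0 CPM in isotype, with a ratio of PD1/PEM to isotype of 1.21 (0.884 to 1.67).

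**Figure D3:**
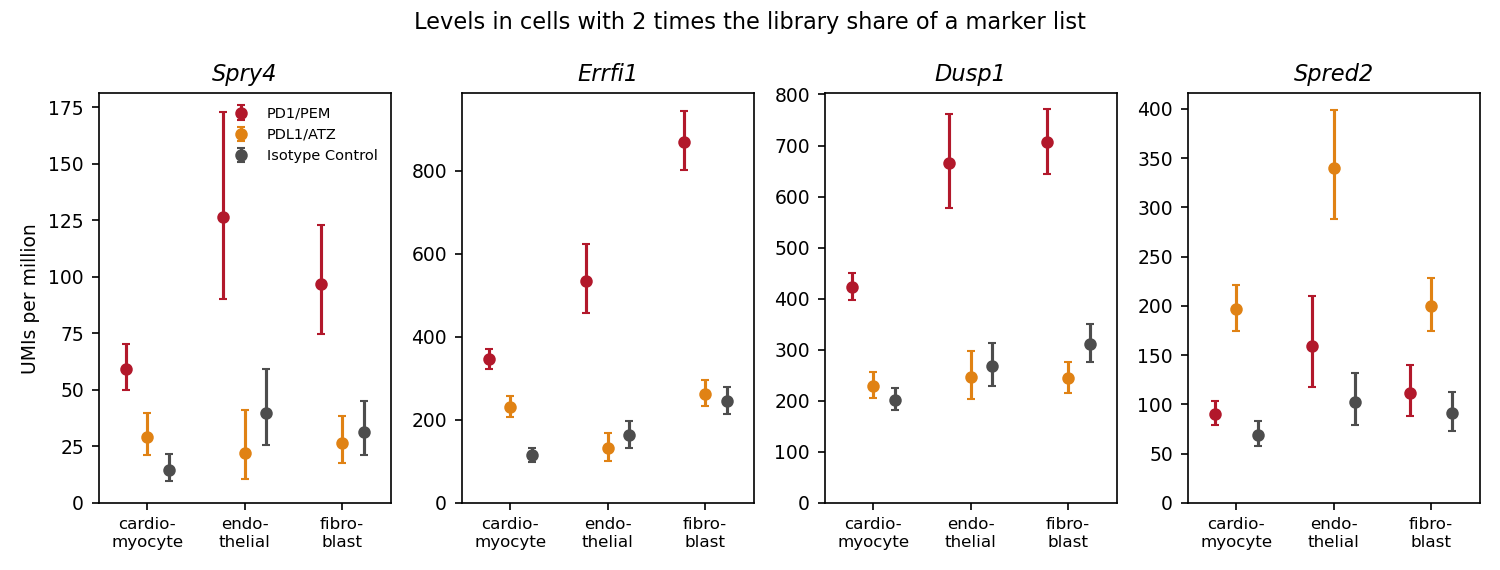
CPM of Spry4, Errfi1, Dusp1 and Spred2 in cells where a cardiomyocyte, endothelial or fibroblast marker list took at least 2 times its library share, in PD1/PEM (red), PDL1/ATZ (orange) and isotype (grey), with exact 95% Poisson intervals. PD1/PEM stands highest for Spry4, Errfi1 and Dusp1 in each set, and PDL1/ATZ stands highest for Spred2.

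By count, 4 of the 9 genes with enough UMIs were at least 1.5-fold above isotype in PD1/PEM in the cardiomyocyte-rich set (9.74% of all genes), 5 of 5 in the endothelial-rich set (9.64%) and 4 of 7 in the fibroblast-rich set (7.39%). Besides Spry4, Errfi1 and Dusp1 these were Spred1 in the cardiomyocyte-rich set (1.62, 1.19 to 2.24), Spred1 and Spred2 in the endothelial-rich set (1.71, 0.98 to 2.95, and 1.55, 1.04 to 2.29) and Dusp6 in the fibroblast-rich set (1.98, 1.18 to 3.37). Genes short of 50 UMIs are not in these counts, and a gene could reach 50 through the library in which it was high. In PDL1/ATZ against isotype, 5 of 9 genes were at least 1.5-fold higher in the cardiomyocyte-rich set, where 44.4% of all genes were. These were Spred2 (2.84, 2.29 to 3.55), Errfi1 (2.03, 1.70 to 2.44), Spry4 (2.02, 1.20 to 3.45), Spred1 (1.98, 1.42 to 2.78) and Spry1 (1.53, 0.843 to 2.80). Errfi1 stood at 1.07 (0.897 to 1.28) in the fibroblast-rich set and at 0.808 (0.575 to 1.13) in the endothelial-rich set.

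**Figure D4:**
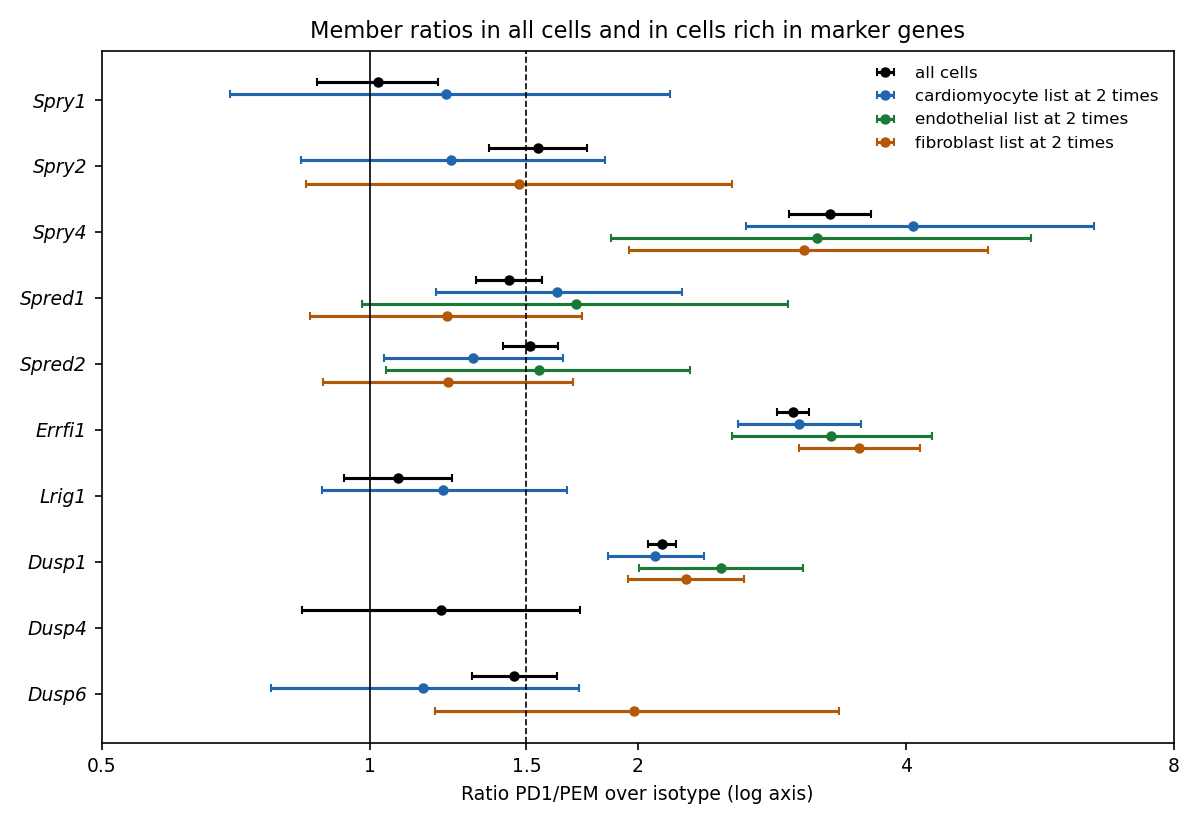
Ratio of PD1/PEM to isotype (log axis) for each gene with at least 50 UMIs over both libraries, in all cells (black) and in cells rich in cardiomyocyte (blue), endothelial (green) or fibroblast (orange) markers; bars are exact 95% intervals for counting error, the solid line is no difference and the dashed line 1.5-fold. Errfi1, Dusp1 and Spry4 lie to the right of the dashed line in every set of cells, and Spry1 and Lrig1 have intervals that include 1.

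Other features of the libraries moved with these ratios. A list of 14 immediate early genes, which cells switch on within minutes of stimulation or of tissue dissociation, took 0.614% of UMIs in PD1/PEM and 0.396% in PDL1/ATZ, against 0.393% in isotype. Of these 14 genes 4 were at least 1.5-fold above isotype in PD1/PEM and 0 lower, where 5.51% and 4.57% of all genes were. The 4 were Btg2 (2.37), Nr4a1 (2.33), Egr1 (2.31) and Ier2 (1.87). Of the 14 genes 12 lay above 1, and none was at 0 in any library. Egr1 alone held 28741 of the list's 90715 UMIs in PD1/PEM and 14060 of 65619 in isotype. In the 25% of each library's cells with the lowest share of immediate early UMIs, that share was 0.370% in PD1/PEM and 0.190% in isotype. There Spry4 was at 80.7 CPM in PD1/PEM against 27.5 CPM in isotype, a ratio of 2.93 (2.36 to 3.67), Errfi1 at a ratio of 2.82 (2.58 to 3.08) and Dusp1 at 1.98 (1.83 to 2.13). In the 25% with the highest share, at 0.899% in PD1/PEM and 0.646% in isotype, the ratios were 3.44 (2.78 to 4.27), 2.89 (2.67 to 3.14) and 2.10 (1.96 to 2.26). In the lowest 25% each of the 3 ratios was below its all-cell interval, and in both sets the immediate early share itself was still higher in PD1/PEM. The part of this list in the ratios was not tested.

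A list of 10 genes of abundant cardiomyocyte RNA took 2.43% of UMIs in PD1/PEM and 1.46% in PDL1/ATZ, against 3.37% in isotype. Such RNA can be free in droplets or belong to the cells, and the sources were not separated here. The share was 3.25% in cardiomyocyte-rich and 1.88% in endothelial-rich cells of PD1/PEM, against 3.72% and 3.02% in those of isotype. All 10 were below 1 in PD1/PEM against isotype, 5 of them by at least 1.5-fold, where 4.57% of all genes were. None was at 0, and the part of this list in the ratios was not tested. Macrophage markers took 0.0575% of UMIs in PD1/PEM and 0.0705% in PDL1/ATZ, against 0.0443% in isotype, and 9 of 10 lay above 1 in PD1/PEM against isotype with 0 at least 1.5-fold apart. None of them was at 0, and their part was not tested. By mitochondrial content, the ratios of Spry4, Errfi1 and Dusp1 were 3.38 (2.78 to 4.13), 2.79 (2.59 to 3.0) and 2.07 (1.94 to 2.22) in cells with at most 25% and 3.25 (2.87 to 3.69), 3.08 (2.93 to 3.24) and 2.16 (2.07 to 2.26) in cells above. Spry2 and Spred2 fell short of 1.5-fold in cells with at most 25%, at 1.25 (0.996 to 1.58) and 1.39 (1.23 to 1.58). By depth, Spry4 gave 2.97 in cells under 1000 UMIs, 3.44 from 1000 to under 2000 and 3.41 from 2000, Errfi1 3.13, 3.06 and 3.02, and Dusp1 2.23, 2.09 and 2.23. The difference was present at each depth.

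**Figure D5:**
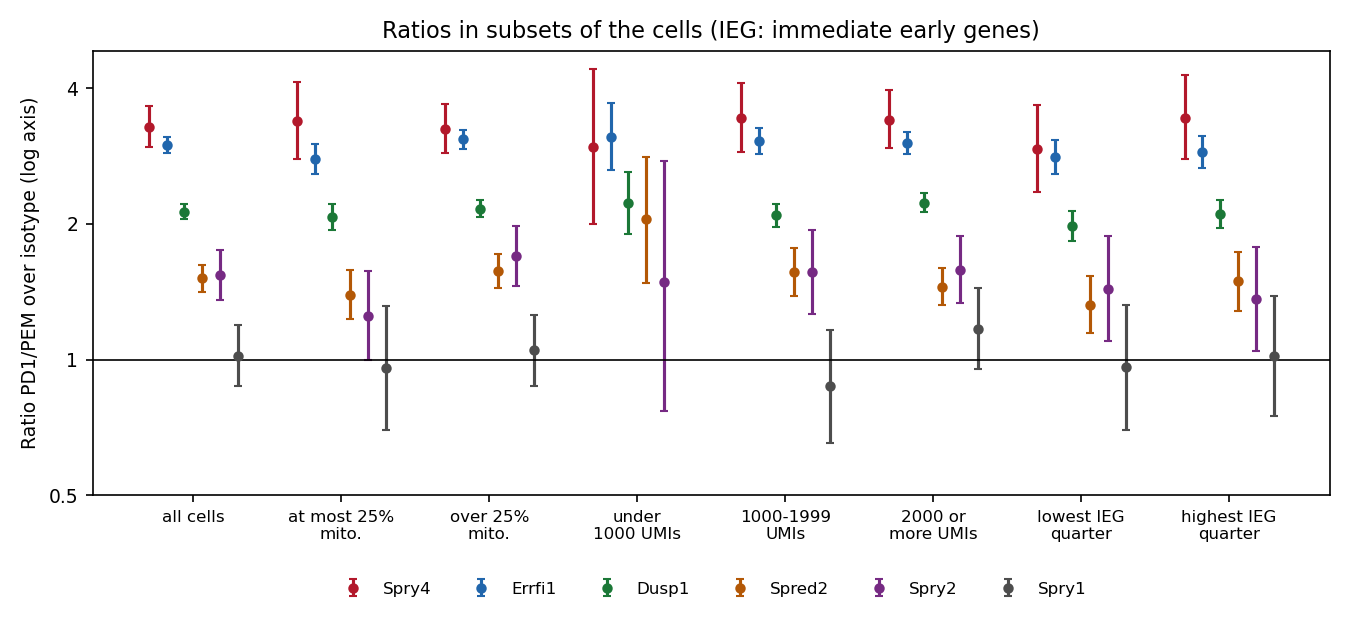
Ratio of PD1/PEM to isotype (log axis) of 6 genes in all cells and in subsets by mitochondrial share, UMIs per cell and share of immediate early genes (IEG), with exact 95% intervals for counting error; a gene is left out of a subset where it has under 50 UMIs over both libraries. Spry4 stays between 2.93 and 3.44, Errfi1 between 2.79 and 3.13 and Dusp1 between 1.98 and 2.23, while Spry1 stays near 1.

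The rest of the pathway was read from lists chosen by role. Of 24 further feedback inhibitors 20 had enough UMIs, and their median log2 ratio was -0.01, beside 0.01 over all genes. The 10 genes had 0.57, but they were chosen with these ratios known, so nothing is read from that contrast. Of the 20 further inhibitors 2 were at least 1.5-fold above isotype in PD1/PEM and 0 lower, where 5.51% and 4.57% of all genes were. The 2 were the phosphatases Dusp5 and Dusp8. Dusp5, a nuclear phosphatase specific for ERK, had 507 UMIs or 34.3 CPM in PD1/PEM and 142 UMIs or 9.38 CPM in PDL1/ATZ, against 319 UMIs or 19.1 CPM in isotype. It was 1.80-fold (1.56 to 2.07) higher in PD1/PEM and 2.04-fold lower in PDL1/ATZ. Dusp8, which acts on JNK and p38, had a ratio of PD1/PEM to isotype of 1.52 (1.34 to 1.73). Spred3, Dusp16 and Dok1 lay at 1.499 (1.03 to 2.19), 1.43 (1.32 to 1.56) and 1.40 (0.867 to 2.26), with Spred3 at 69 UMIs in PD1/PEM against 52 in isotype and just under the line. Lrig2, the relative of Lrig1, lay at 0.719 (0.637 to 0.810).

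Of 28 genes of the ERK cascade itself, from adaptors to transcription factors, all had enough UMIs, with a median log2 ratio of 0.11. In PD1/PEM 1 gene was at least 1.5-fold above isotype and 0 lower, where 5.51% and 4.57% of all genes were. It was Ets2, a transcription factor phosphorylated by ERK, with 109 CPM in PD1/PEM and 136 CPM in PDL1/ATZ, against 60.5 CPM in isotype and a ratio of PD1/PEM to isotype of 1.79 (1.66 to 1.94). Ets1 lay at 1.46 (1.39 to 1.55), the Ras activator Sos1 at 1.37 (1.24 to 1.51) and the phosphatase Ptpn11 at 0.786 (0.736 to 0.840). Over all cells these 4 were the widest departures of the list in PD1/PEM. In the cardiomyocyte-rich set 5 of 26 reached 1.5-fold above isotype and 0 below, where 9.74% of all genes were above. In the endothelial-rich set 4 of 16 were above and 2 below, where 9.64% of all genes were above. In the fibroblast-rich set 1 of 24 was above and 1 below, where 7.39% of all genes were above. The share of all genes below was not counted in these sets. In PDL1/ATZ over all cells 13 of 28 were at least 1.5-fold above isotype and 2 below, beside 49.6% and 5.32% of all genes.

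Of 20 transcripts known as targets of ERK signalling, 4 were at least 1.5-fold above isotype in PD1/PEM and 1 lower. Among all genes 5.51% and 4.57% were, and the median log2 ratio of the 20 transcripts was 0.23. The early growth response genes, which encode zinc finger transcription factors, led the list. Egr3 had 2290 UMIs or 155 CPM in PD1/PEM and 372 UMIs or 24.6 CPM in PDL1/ATZ, against 485 UMIs or 29.1 CPM in isotype, and a ratio of PD1/PEM to isotype of 5.33 (4.83 to 5.89). Egr2 had 33.0 CPM in PD1/PEM and 11.2 CPM in PDL1/ATZ, against 8.99 CPM in isotype, and a ratio of 3.67 (3.05 to 4.43). Egr1 had 1946 CPM in PD1/PEM and 621 CPM in PDL1/ATZ, against 843 CPM in isotype, and a ratio of 2.31 (2.26 to 2.36). As with Spry4, Errfi1 and Dusp1, all 3 were highest in PD1/PEM. Egr1 and Fos are also on the immediate early list, so the target list and that list are not separate readings. Klf10, a transcription factor induced by TGF-beta, was 1.98-fold (1.71 to 2.30) lower in PD1/PEM, with 17.7 CPM there and 42.5 CPM in PDL1/ATZ, against 35.1 CPM in isotype. In PDL1/ATZ against isotype the medians were 0.44 for the further feedback inhibitors, 0.56 for the cascade and -0.28 for the targets, beside 0.58 over all genes.

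The genes whose pattern was most like that of Errfi1 were sought over 9 levels, 3 libraries by 3 marker gates, among 4463 genes with at least 200 UMIs over these. By Euclidean distance between centred log2(CPM + 1) profiles they were Egr1 (0.66), the homeobox gene Meox2 (0.99), the clock gene Per1 (1.07), Klf6 (1.14) and the cyclin gene Ccnl1 (1.15). For Spry4 they were Col6a1 (1.48), Disc1 (1.59), Itih5 (1.68), Plscr2 (1.68) and Nr4a2 (1.69), all at larger distances and counted with 228 to 459 UMIs over the 9 levels. The cardiomyocyte gate gives 3 of the 9 levels. There Spry4 had 1 UMI in PD1/PEM and 0 in PDL1/ATZ, against 2 in isotype, and Errfi1 had 8 in PD1/PEM and 2 in PDL1/ATZ, against 31 in isotype. The genes listed for Spry4 therefore rest on single counts in these levels and are no more than a ranking. Those listed for Errfi1 also rest on few counts there and are likewise a ranking. They were counted with 494 to 4746 UMIs over the 9 levels, and distances were not adjusted for such depth.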

How the data were processed

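Single-cell libraries of pooled mouse hearts were made with 10x Genomics 3′ chemistry, per the labels. Cell Ranger, Seurat and the build mm10 appear in the submitters' processing notes, with no version; the annotation and any cell filter were not given in the sources used here. Counts were deposited by the authors as whole UMIs per gene and cell, not normalized; no cell has over 2499 genes or 30% mitochondrial UMIs. Groups follow sample titles. UMIs were summed over cells and scaled to CPM. Intervals are exact Poisson and exact conditional binomial at 95%. Genes needed 50 UMIs over both libraries, a difference was counted from 1.5-fold, and log2 ratios use a pseudocount of 0.5. With 1 library per group no test was run. No doublet caller was run; the 2% of cells with the most UMIs were left out as an alternative. The members, gene lists, marker lists and gates were chosen with earlier results of these data known. All members are named, and of each other list up to 4 genes (6 for further feedback inhibitors) with the largest absolute log2 ratio of PD1/PEM to isotype. Likeness used the 5 nearest genes. Positions are GENCODE M21, upstream sequences RefSeq. Python 3.11.15 with numpy 2.4.6, scipy 1.17.1 and pandas 2.3.3 was used, and edgeR 4.0.16 in R 4.3.3 for scaling factors alone. The ratio step was checked on simulated Poisson counts. Endothelial, fibroblast and mural marker lists had median log2 ratios of PD1/PEM to isotype of 0.15, 0.11 and 0.04, and the cardiomyocyte list -0.22. The macrophage list had 0.42 and the abundant cardiomyocyte RNA list -0.56. Of the lymphocyte list 1 gene, Cd3e, had enough UMIs (0.84).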

Additional observations from a re-analysis of the deposited data

How the results depend on the processing

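Over all cells, the count of the 10 genes at least 1.5-fold above isotype in PD1/PEM was 5, and 3 in cells with at most 25% mitochondrial UMIs and 3 at a 2-fold line; under the other settings it lay between 4 and 6, and 0 were lower under any setting run. Of 123 single-gene log2 ratios of PD1/PEM to isotype under these settings, 13 moved beyond the counting interval and none changed sign where its interval excluded 1. The log2 ratio stayed between 1.55 and 1.78 for Spry4, 1.48 and 1.64 for Errfi1 and 0.98 and 1.16 for Dusp1. In PDL1/ATZ against isotype, the count of higher genes was 1, and 0 in the 326 PDL1/ATZ and 146 isotype cells without an immediate early UMI; the count of lower genes was 0, and 3 with TMM factors (0.873 for PD1/PEM, 1.30 for PDL1/ATZ, 0.879 for isotype) and 3 when centred on the median gene. There 37 of 73 single-gene values moved, mostly with the scaling. In the cardiomyocyte gate the count was 1 of 1 gene with enough UMIs, and 4 of 9 in the cardiomyocyte-rich set. In the endothelial gate it was 5 of 8, 3 of 3 with at most 25% mitochondrial UMIs, where fewer genes had enough UMIs, and 3 of 8 at 2-fold. The causes of the other moves were not tested. With a minimum of 10 or 200 UMIs, 9.40% or 4.25% of all genes were at least 1.5-fold higher in PD1/PEM. Subsets by depth and immediate early share, and the marker-rich sets, were chosen after seeing the data. Not run for want of cells or UMIs were PD1/PEM cells without an immediate early UMI (6 cells), PDL1/ATZ cells over 25% mitochondrial UMIs (9 cells) and the strictest gates. No paired analysis was possible because each group has 1 library. Depth limits Dusp4 in all cells and most genes within the gates.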

Other observations

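Growth factors and their receptors were read beside their inhibitors. Of 26 ligand genes 24 had enough UMIs over PD1/PEM and isotype, with a median log2 ratio of 0.05. Of these 5 were at least 1.5-fold higher in PD1/PEM and 3 lower, where 5.51% and 4.57% of all genes were. Vegfa, the main vessel growth factor, had 98.0 CPM in PD1/PEM and 46.9 CPM in PDL1/ATZ, against 169.5 CPM in isotype, and was 1.73-fold (1.62 to 1.84) lower in PD1/PEM and 3.61-fold lower in PDL1/ATZ than in isotype. Cell type markers differed too. The 16 cardiomyocyte genes took 0.447% of UMIs in PD1/PEM and 0.205% in PDL1/ATZ, against 0.536% in isotype. Of them 2 were at least 1.5-fold lower in PD1/PEM and 15 in PDL1/ATZ, where 4.57% and 5.32% of all genes were. The 16 endothelial genes took 0.419% in PD1/PEM and 0.716% in PDL1/ATZ, against 0.355% in isotype. Of them 2 were at least 1.5-fold higher in PD1/PEM and 11 in PDL1/ATZ, where 5.51% and 49.6% of all genes were. None of these genes was at 0 in any library, and their part in the values of Vegfa, Vegfc and Kdr was not tested. Vegfc, which acts on lymphatic vessels, went the other way, with 50.5 CPM in PD1/PEM and 142 CPM in PDL1/ATZ, against 29.1 CPM in isotype. Egf was 1.61-fold (1.28 to 2.02) higher in PD1/PEM, from 189 UMIs there against 133 in isotype. Fgf10, a fibroblast growth factor, was 1.73-fold (1.38 to 2.19) lower in PD1/PEM, with 114 UMIs there and 553 in PDL1/ATZ, against 223 in isotype.

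Of 21 receptor genes 20 had enough UMIs, with a median log2 ratio of 0.04. Of these 2 were at least 1.5-fold higher in PD1/PEM and 1 lower, where 5.51% and 4.57% of all genes were. Kdr, a receptor for Vegfa on endothelial cells, had 299.7 CPM in PD1/PEM and 397 CPM in PDL1/ATZ, against 189 CPM in isotype, a ratio of PD1/PEM to isotype of 1.59 (1.52 to 1.66). The other was Ntrk2, at 1.75 (1.44 to 2.12). Fgfr3 was 2.38-fold (2.08 to 2.73) lower in PD1/PEM, with 299 UMIs there and 444 in PDL1/ATZ, against 805 in isotype. The receptor Igf1r lay at 0.700 (0.674 to 0.727). Of the 16 endothelial markers 11 lay above 1 in PD1/PEM against isotype and 5 below, with a median log2 ratio of 0.15, and Mecom (1.71) and Erg (1.65) were the 2 at least 1.5-fold higher.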
